A study of Oryza sativa Japonica Group with 8 samples.

Results

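The red light response was examined in rice seedlings that already carry a constitutively active phytochrome B. OsYHB is an allele of the rice phytochrome B gene whose product signals without light, and here it was expressed in the cultivar Nipponbare from the maize Ubiquitin promoter, which is active in most cell types (Ubi::OsYHB/Nip). The comparison rests on 4 of the 8 arrays of the series, chosen by their titles: OsYHB seedlings under continuous red light of 50 µmol m-2 s-1, line 1 and line 9, against OsYHB seedlings in darkness, line 1 and line 9. The other 4 arrays are wild-type Nipponbare in the same red light (2 arrays) and in darkness (2 arrays), and they serve here for the size of the ordinary response and for a shared estimate of error. All seedlings were 5 days old and had been raised on MS medium at 28 °C. Above-ground tissue was taken in the subjective morning, and the dark-grown seedlings were handled under a dim green safelight. Each line is 1 independent, single-insertion, homozygous transformant, with 41-fold (line 1) and 23-fold (line 9) overexpression of OsYHB per the labels. The lines differ in insertion and dose, so the arrays of an OsYHB group are 2 genotypes with 1 array each, and the spread between them includes any difference between lines.

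Phytochromes are red and far-red light receptors that switch between an inactive and an active form. Active phytochrome B moves to the nucleus, where it removes growth-promoting transcription factors, and dark-grown seedlings thereby change from etiolated growth to greening, with induction of photosynthesis and chlorophyll genes. The rice phytochromes are PHYA, PHYB and PHYC. An allele that signals in darkness lets the question be asked which transcripts still respond when red light is added to seedlings whose phytochrome B pathway is already on.

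Values are log2 of the intensity that the authors deposited for each probe set, and a difference is red light minus dark on that scale. Calls were made in limma where the Benjamini-Hochberg p, adjusted over all 57258 probe sets, was below 0.05. The OsYHB difference is the mean of the within-line differences. In bulk tissue a lower signal from fewer cells of a type and from less RNA per cell cannot be told apart.

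Of the 64 probe sets that carry the array's reporter prefix, 1 stood far higher in every OsYHB array than in every wild-type array. It was picked for that gap, so its values describe the genotypes and are no independent check of the labels. It stood at 13.26 and 13.02 in OsYHB red light and 13.18 and 12.90 in OsYHB darkness, against 2.98 and 2.98 in wild-type red light and 3.02 and 2.85 in wild-type darkness. The median log2 intensity of the array ranged from 4.35 to 4.39. Genes of the photosynthetic light reactions had a median level between 11.16 and 12.75 in the 8 arrays, a list of 20 root genes between 4.01 and 4.25, and a list of 20 seed storage and late embryo genes between 4.07 and 4.74. Among the defining root genes, the silicon transporter Lsi1 was at 8.88 and 8.90 in OsYHB red light and 9.15 and 9.33 in OsYHB darkness, whereas its partner Lsi2 lay between 2.17 and 2.49 and the Casparian strip gene OsCASP1 between 3.26 and 3.70 in those arrays. Levels varied widely within the root list. In the same arrays HAK5 lay between 11.82 and 11.91 and OsCASPL2A1 between 11.22 and 11.30, whereas PHT1-6 lay between 2.04 and 2.29. The low median of the list therefore does not hold for each member. Of all array pairs, 0 were identical.

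Few transcripts passed the test for red light in OsYHB. Of 57258 probe sets, 14 were called (0.0245%), 5 higher (0.00873%) and 9 lower (0.0157%). In wild type 4922 were called (8.60%), 2735 higher (4.78%) and 2187 lower (3.82%). The test of the difference between the genotypes called 2003 probe sets (3.50%), 681 with a higher value in OsYHB (1.19%) and 1322 with a lower one (2.31%). In 1830 of these (91.4%) the change was the smaller in OsYHB. The interaction is computed from both changes and chose these probe sets, and 1820 of the wild-type calls (37.0%) were among the interaction calls. The same share over all probe sets is not given here, so the 91.4% is a description only. The median absolute difference over all probe sets was 0.15 in OsYHB and 0.18 in wild type, but the 99th percentile was 1.01 in OsYHB and 2.15 in wild type. Probe sets called higher in wild type had a median difference of 0.02 in OsYHB (0.10 in line 1 and -0.07 in line 9), against 1.09 in wild type. Probe sets called lower in wild type had a median of -0.08 in OsYHB (-0.13 in line 1 and -0.07 in line 9), against -0.85 in wild type. The wild-type values of these lists chose their members and are given as a description only.

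**Figure D1:**
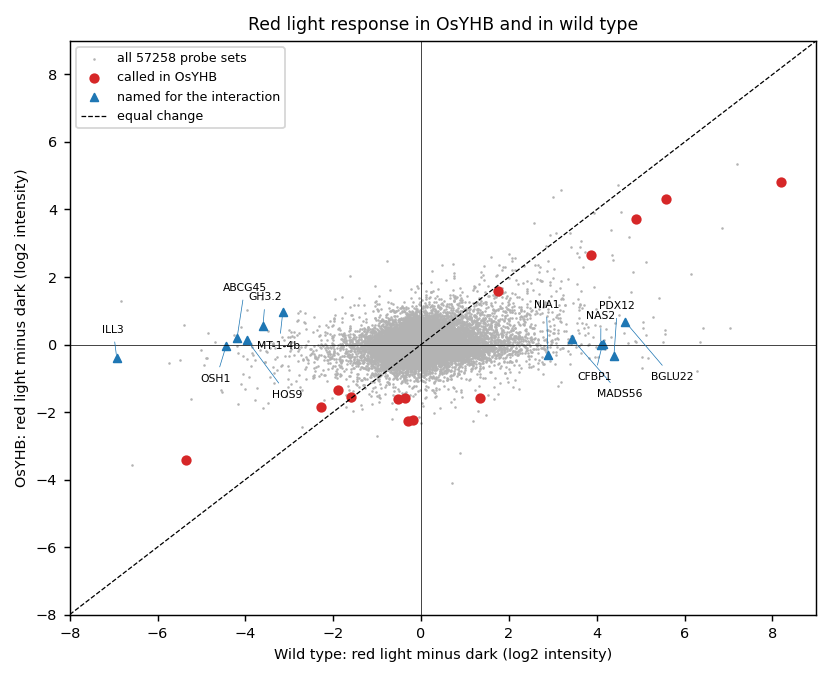
Difference in log2 intensity between red light and darkness in OsYHB (vertical axis, mean of 2 lines) against that in wild type (horizontal axis, mean of 2 arrays a group) for 57258 probe sets. The 14 probe sets called in OsYHB are red, the 12 genes named for the interaction are blue triangles that lie along the horizontal axis, between -0.40 and 0.95 in OsYHB, and the dashed line marks an equal change.

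The count of 14 depends on the error model. Without line as a block it was 6, of which 5 were among the 14, and with the 4 OsYHB arrays alone it was 0 with and without that block, where 9382 and 9392 probe sets had an unadjusted p below 0.05. At an unadjusted p below 0.05 there were 7926 probe sets in OsYHB (13.8%), 12768 in wild type (22.3%) and 10824 in the interaction (18.9%). Both comparisons share the spread, with a median SE of 0.15 in each. The adjustment is stricter in the comparison with fewer small p-values: PORA, the protochlorophyllide oxidoreductase of dark-grown seedlings, had an unadjusted p of 0.000112 in OsYHB and 8.88e-05 in wild type, which limma adjusted to 0.0984 in OsYHB and to 0.00381 in wild type. A p that misses the threshold therefore does not show that a transcript did not respond. A rule of size without a test gave 81 probe sets (0.141%) with every OsYHB red light array over 2-fold above every OsYHB dark array, and 85 (0.148%) over 2-fold below. The same rule gave 1144 (2.00%) and 483 (0.844%) in wild type.

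Most of what was called in OsYHB was also called in wild type. Of the 14 probe sets 10 were called in both genotypes, which is 71.4% of the OsYHB calls and 0.203% of the wild-type calls, and 9 of the 10 had the same direction. Of the 81 probe sets over 2-fold higher in OsYHB, 46 were called higher and 3 lower in wild type. Of the 85 over 2-fold lower in OsYHB, 29 were called lower and 4 higher in wild type. Over all probe sets 8.60% were called in wild type, 4.78% higher and 3.82% lower. The comparisons have no array in common, but both tests use the same estimate of error for each probe set. A probe set with a small shared spread can therefore pass in both genotypes more easily. The 10 calls in common are thus not independent evidence from each genotype.

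The largest called differences belonged to probe sets that the annotation table leaves without a gene name. Os.12430.1.S1_at stood at 10.37 in line 1 and 9.31 in line 9 in OsYHB red light, against 4.79 and 5.26 in OsYHB darkness, a difference of 4.81 (SE 0.43, limma adjusted p = 0.0432). In wild type it was at 11.64 and 12.17 in red light, against 3.20 and 4.22 in darkness, and the smaller change in OsYHB passed the test (-3.37, SE 0.60, adjusted p = 0.0296). Os.12629.1.S1_at stood at 11.94 and 10.91 in OsYHB red light, against 7.19 and 7.05 in OsYHB darkness (4.30, SE 0.22, adjusted p = 0.00731), and rose by 5.57 in wild type. Both rises were larger than the gap between the lines. Os.8673.1.S1_at, of the gene LOC4350344, stood at 4.43 and 2.85 in OsYHB red light, against 7.77 and 6.37 in OsYHB darkness (-3.43, SE 0.30, adjusted p = 0.0432), and its wild-type difference was -5.35. Its lines differed by over 1 log2 unit in each light condition, yet the within-line differences were close, at -3.34 and -3.52. A further 6 probe sets without a gene name were called with the same direction in both genotypes, and they are listed here because all 14 are given. Os.26063.1.S1_at rose by 3.72 in OsYHB, Os.54698.1.S1_at by 2.66 and Os.18485.1.S1_s_at by 1.59. Os.46700.1.S1_at fell by 1.86, Os.27474.1.S1_at by 1.55 and Os.38581.1.S1_s_at by 1.35. Their adjusted p in OsYHB lay between 0.0402 and 0.0474, and 0 of the 6 had a called interaction. The other probe set of LOC4338226, the gene of Os.27474.1.S1_at, was called in neither genotype. It had -0.56 in OsYHB (adjusted p = 0.337) and -0.30 in wild type (adjusted p = 0.503). With each array left out in turn, Os.12629.1.S1_at kept its OsYHB call in 2 of 8 fits, those on line 9 alone (adjusted p from 0.0273 to 0.0664), and Os.12430.1.S1_at and Os.8673.1.S1_at in 0 of 8. The interaction of Os.12430.1.S1_at was kept in the fit without wild-type dark replicate 2 alone, with adjusted p up to 0.226 elsewhere.

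The 4 probe sets called in OsYHB and not in wild type all fell, and in each the difference between genotypes passed the test as well. These 4 were picked by their calls in each genotype. The interaction is computed from the same values, so it is no separate support for them. Among them were HSP24.1 and HSFB2C, genes of the heat shock response, and HSFB2C and Os.53034.1.A1_at are named outside the naming rule, after their values were seen. HSP24.1, a small heat shock protein, was at 9.23 and 9.07 in OsYHB red light, against 10.80 and 10.63 in OsYHB darkness. That is a fall of 1.57 in each line (-1.57, SE 0.15, adjusted p = 0.0451). Its wild-type values, 9.28 and 9.13 in red light against 9.41 and 9.75 in darkness, lay near those of OsYHB in red light, and the OsYHB dark arrays alone stood high. The interaction was -1.20 (SE 0.21, adjusted p = 0.028). A probe set of HSFB2C, a class B heat shock factor, was at 5.97 and 6.54 in OsYHB red light, against 7.71 and 8.02 in OsYHB darkness (-1.62, SE 0.15, adjusted p = 0.0451). In wild type its difference was also negative, at -0.53 (95% confidence interval -0.88 to -0.18, adjusted p = 0.0795), and its interaction was -1.09 (adjusted p = 0.0407). The other 2 probe sets of HSFB2C did not show the fall in OsYHB, with differences of -0.16 and -0.22 there (adjusted p = 0.604 and 0.742). Os.17496.1.S1_at (LOC4351919) was at 5.55 and 5.98 in OsYHB red light, against 7.67 and 8.38 in OsYHB darkness (-2.26, SE 0.18, adjusted p = 0.0402), with an interaction of -1.97 (adjusted p = 0.00953). The fourth, Os.53034.1.A1_at (LOC4350288), had a difference of -2.24 and an interaction of -2.06 (adjusted p = 0.0114). OsAffx.27098.1.S1_at, also picked after its values were seen, was the probe set with opposite calls: it fell by 1.58 in OsYHB and rose by 1.33 in wild type (interaction -2.90, adjusted p = 0.0016). Without any 1 wild-type array, which leaves fewer residual degrees of freedom, limma called 0 probe sets in OsYHB, with 6470 or 10449 at an unadjusted p below 0.05. HSP24.1 then had an adjusted p between 0.053 and 0.118 at the same value, and between 0.257 and 0.78 on 1 line alone. The interaction of HSP24.1 was kept in the 2 fits without a wild-type dark array (adjusted p up to 0.224 in the rest) and that of HSFB2C in 0 of 8 (0.0521 to 0.223). Os.17496.1.S1_at lost its interaction without any OsYHB array or wild-type red light replicate 2 (0.0541 to 0.126).

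Genes were then read by role, each gene by its brightest probe set. By gene, 8 of 17905 were called in OsYHB (0.0447%), with 0.0112% of genes higher and 0.0335% lower. In wild type 2709 were called (15.1%), with 8.45% higher and 6.68% lower, and in the interaction 1180 (6.59%), with 2.19% higher and 4.40% lower in OsYHB. These shares of all genes are the background for the list counts below. With 0.0447% of all genes called in OsYHB, a count of 0 does not set a list apart. The 28 lists used here hold 734 genes, of which 1 was called in OsYHB (HSP24.1), 171 in wild type and 90 in the interaction. At an unadjusted p below 0.05 there were 166 of the 734 in OsYHB and 3291 of the 17905. List members named below as examples, beyond those picked by the naming rule, were chosen after their values were seen. The median difference of all genes was 0.05 in OsYHB (0.03 in line 1 and 0.06 in line 9) and -0.10 in wild type.

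**Figure D2:**
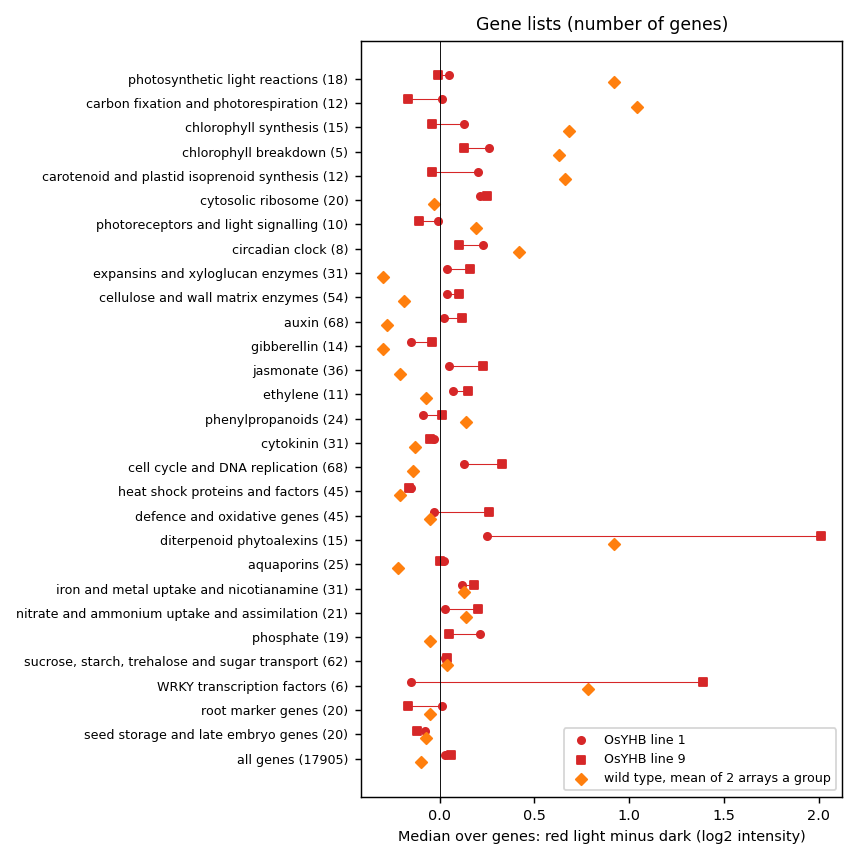
Median difference in log2 intensity between red light and darkness over the genes of each list, in OsYHB line 1 (circles), OsYHB line 9 (squares) and wild type (diamonds, means of 2 arrays a group), with the number of genes in brackets. The 5 plastid lists at the top lie between -0.17 and 0.26 in the OsYHB lines and between 0.63 and 1.04 in wild type. The lines stand far apart for the phytoalexin and WRKY lists.

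The photoreceptor transcripts themselves showed little change in OsYHB. PHYA, the receptor that is degraded in light, was at 10.08 and 10.13 in OsYHB red light and 10.25 and 10.16 in OsYHB darkness, a difference of -0.10 (95% confidence interval -0.43 to 0.23). In wild type it fell by 1.19 (adjusted p = 0.00271), and the genotypes differed (1.09, SE 0.20, adjusted p = 0.0334). The PHYB probe set was at 9.63 and 9.85 in OsYHB red light and 9.65 and 10.04 in OsYHB darkness (interval -0.53 to 0.32). Its wild-type values were no lower, at 9.83 and 9.89 in red light and 10.38 and 9.85 in darkness, so it does not register the labelled overexpression. Whether the transgene contains the stretch its probes match is not given in the sources used here, and it checks nothing about the genotype. PHYC, the remaining phytochrome, differed by 0.00 (interval -0.31 to 0.31). CRYD, a cryptochrome of the DASH type, was at 7.46 and 7.51 in OsYHB red light, against 8.22 and 8.52 in OsYHB darkness (-0.89, SE 0.13, adjusted p = 0.11). In wild type it rose by 0.68 (adjusted p = 0.0196), and the interaction passed the test (-1.57, SE 0.18, adjusted p = 0.00635), so that the OsYHB response lay below the wild-type response. The interaction of CRYD was lost without a line 9 array (adjusted p = 0.0919), and that of PHYA without any OsYHB or wild-type red light array (0.13 to 0.261). Of 10 genes on the light signalling list 0 were called in OsYHB, against 5 in wild type and 3 in the interaction. The shares of all genes were 0.0447%, 15.1% and 6.59%.

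Genes of the light reactions and of carbon fixation, classical targets of phytochrome, had median differences near 0 in OsYHB. On the light reactions list 0 of 18 genes were called in OsYHB by limma (2 at an unadjusted p below 0.05), where 0.0447% of all genes were called. The median OsYHB difference of the list was 0.01, with a range from -0.52 to 0.39. In wild type 13 of the 18 rose (median 0.92), against 8.45% of all genes. A called interaction, each lower in OsYHB, was found for 11, against 4.40% of all genes. The median level of the list was 12.67 and 12.65 in OsYHB red light, 12.54 and 12.75 in OsYHB darkness, 12.56 and 12.57 in wild-type red light and 11.18 and 11.16 in wild-type darkness. The dark OsYHB arrays thus lay with the red light arrays of either genotype, and the wild-type dark arrays stood apart. LFNR1, a leaf ferredoxin-NADP reductase, differed by -0.12 in OsYHB and rose by 1.90 in wild type (interaction adjusted p = 0.00334), and the chlorophyll-binding protein gene RCABP69 differed by 0.10 in OsYHB and rose by 2.28 in wild type (interaction adjusted p = 0.00866). PSAG, a photosystem I subunit, had the largest difference of the list in OsYHB, -0.52 (adjusted p = 0.325), but its other probe set had 0.14. On the list of carbon fixation and photorespiration 0 of 12 genes were called in OsYHB and 7 rose in wild type. There the largest OsYHB difference was 0.54, of GLO3, a glycolate oxidase (adjusted p = 0.215).

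In chlorophyll synthesis PORA had a difference of like size in both genotypes. PORA was at 10.54 and 10.70 in OsYHB red light, against 11.61 and 11.85 in OsYHB darkness. The difference was -1.11 (SE 0.15, interval -1.46 to -0.76, adjusted p = 0.0984), close to the -1.15 of wild type (SE 0.15), with an interaction of 0.04 and an interval from -0.46 to 0.54. The OsYHB dark arrays of PORA lay below the wild-type dark arrays, which were at 12.69 and 12.77. The remaining genes of the list ranged from -0.13 to 0.62 in OsYHB, where 0 of 15 were called (2 at an unadjusted p below 0.05), whereas 9 rose and 1 fell in wild type. CHLH, a magnesium chelatase subunit, differed by 0.25 in OsYHB and rose by 2.15 in wild type (interaction adjusted p = 0.00566). In the carotenoid and plastid isoprenoid list the largest OsYHB difference was 1.24, of DXPS (LOC4342614), a gene of the plastid isoprenoid pathway. It came from line 9 alone, with -0.09 in line 1 and 2.57 in line 9. SGR, the stay-green gene of chlorophyll breakdown, had 0.57 (adjusted p = 0.452).

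All 8 clock genes had a mean difference above 0 in OsYHB, 7 of them in both lines, but 0 were called, with values from 0.03 to 0.38 for the brightest probe set of each gene. PRR37, a pseudo-response regulator, had the largest (0.38, SE 0.12, adjusted p = 0.265) and rose by 1.12 in wild type. The other PRR37 probe set had 1.00 in OsYHB (1.49 in line 1 and 0.51 in line 9, adjusted p = 0.235) and rose by 1.86 in wild type. Over all genes 42.9% were higher in red light in both OsYHB lines.

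Metal and nutrient genes included several of the largest positive differences in OsYHB. NRAMP1, a metal transporter of the NRAMP family, was at 8.29 and 6.80 in OsYHB red light, against 4.92 and 4.67 in OsYHB darkness (2.75, SE 0.34, adjusted p = 0.0831), and rose by 3.73 in wild type. IRO3, a bHLH factor of the iron deficiency response, was at 7.82 and 7.14 in OsYHB red light, against 5.18 and 5.12 in OsYHB darkness (2.33, SE 0.24, adjusted p = 0.0582). Its wild-type rise was 2.34, with an interaction of -0.01 (interval -0.80 to 0.78). Neither gene passed the adjusted threshold in OsYHB. NAS2, a nicotianamine synthase, behaved otherwise: it was at 4.08 and 3.87 in OsYHB red light and 4.05 and 3.89 in OsYHB darkness, a difference of 0.00 (interval -0.93 to 0.94), and rose by 4.09 in wild type (interaction -4.09, SE 0.57, adjusted p = 0.0118). Of 31 genes on the iron and metal list 0 were called in OsYHB (8 at an unadjusted p below 0.05) and 8 rose in wild type. AMT3-3, an ammonium transporter, was at 5.45 and 6.37 in OsYHB red light, against 3.75 and 3.49 in OsYHB darkness (2.29, SE 0.44, adjusted p = 0.159), and rose by 1.90 in wild type. HAK1, a high-affinity potassium transporter on the root list, was at 7.27 and 9.01 in OsYHB red light, against 5.81 and 5.56 in OsYHB darkness (2.46, SE 0.49, adjusted p = 0.164). The median of that root list was 0.00 in OsYHB. Of 62 sugar genes 0 were called in OsYHB (14 at an unadjusted p below 0.05), with a median of -0.04 and a range from -1.37 to 1.63, the highest being the monosaccharide transporter MST3 (adjusted p = 0.176), and among phosphate genes the transporter PHT1-1 had 1.05 (adjusted p = 0.281). The other PHT1-1 probe set had 0.26, with 0.72 in line 1 and -0.21 in line 9 (adjusted p = 0.654).

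**Figure D3:**
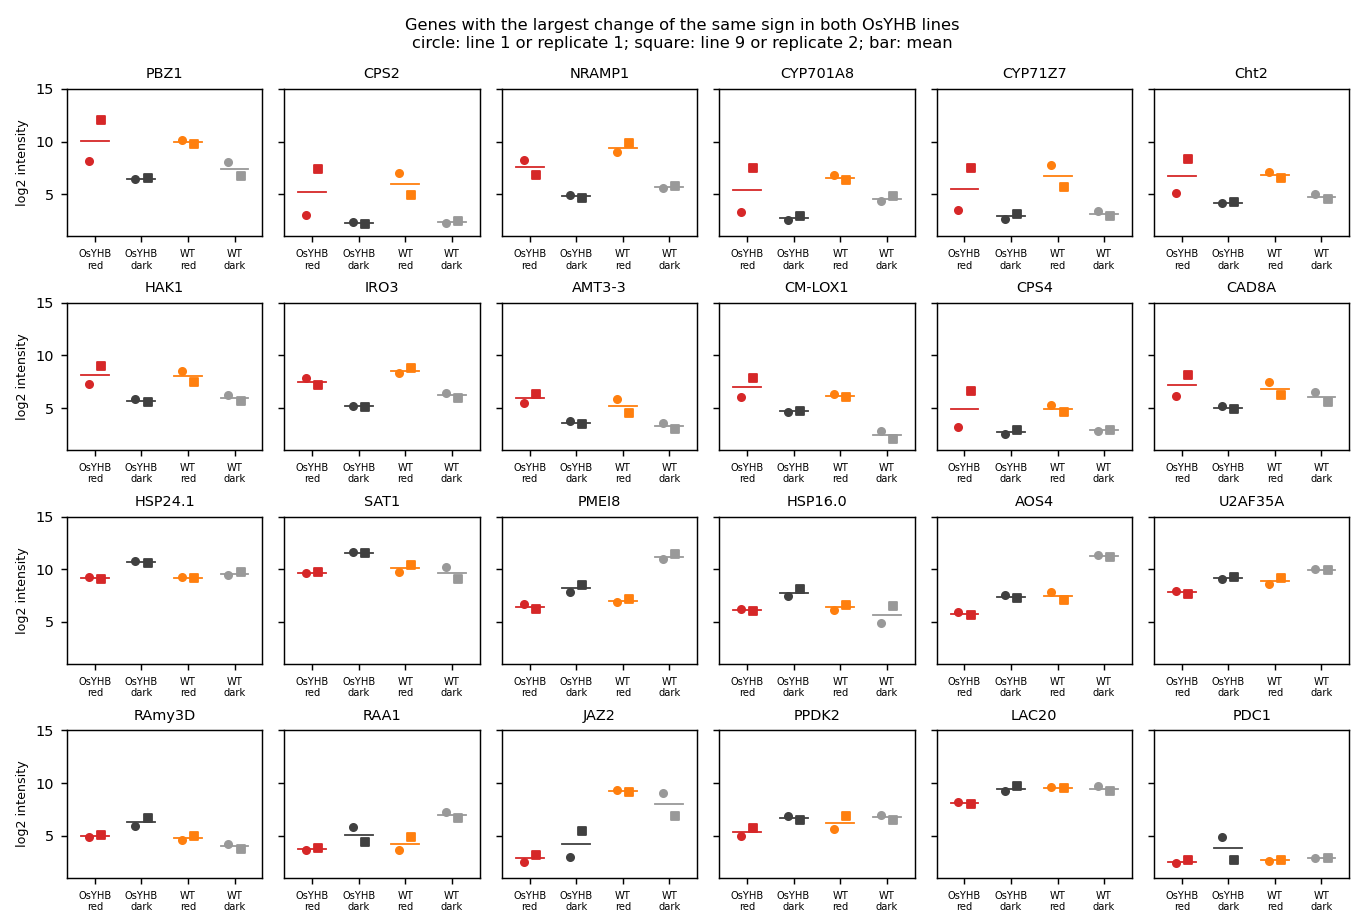
Log2 intensity of each array (points; bars are the means of 2 arrays) for the 12 named genes with the largest positive difference (upper panels, from PBZ1) and 12 with a large negative difference, called ones first (lower panels, from HSP24.1), of the same sign in both OsYHB lines, in OsYHB red light, OsYHB darkness, wild-type red light and wild-type darkness. Line 9 (squares) stands far above line 1 (circles) in OsYHB red light for PBZ1, CPS2, CYP701A8, CYP71Z7, Cht2 and CPS4, and the dark arrays of the lines lie close together.

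Of 45 genes on the list of defence and oxidative genes 0 were called in OsYHB (10 at an unadjusted p below 0.05), with a median of 0.07 and a range from -0.47 to 3.61. The highest value was that of PBZ1, and it came mostly from line 9. PBZ1, a pathogenesis-related protein of the PR10 family, was at 8.15 in line 1 and 12.04 in line 9 in OsYHB red light, against 6.46 and 6.51 in OsYHB darkness. The mean difference was 3.61, with 1.70 in line 1 and 5.53 in line 9 (SE 0.79, adjusted p = 0.179). In wild type it was 2.57 (limma adjusted p = 0.102). The diterpenoid phytoalexins are antimicrobial compounds of rice, and CPS2 and CPS4 code for the copalyl diphosphate synthases at the head of their branches. CPS2 was at 2.98 and 7.36 in OsYHB red light, against 2.38 and 2.17 in OsYHB darkness (0.60 in line 1, 5.19 in line 9, adjusted p = 0.289). CPS4 had 0.66 in line 1 and 3.77 in line 9, the cytochrome P450 gene CYP71Z7 had 0.83 and 4.33, and CYP701A8 had 0.69 and 4.65. The chitinase Cht2 was at 5.15 and 8.38 in OsYHB red light, against 4.15 and 4.25 in OsYHB darkness (1.00 and 4.13). Of its other probe sets 1 had 1.35 in line 1 and 5.24 in line 9, and the other had -0.19 and 0.00. Dark arrays of these genes were close to each other, and the spread arose in red light. Over the 15 phytoalexin genes the median was 0.25 in line 1 and 2.01 in line 9, and for 6 WRKY transcription factors it was -0.15 in line 1 and 1.39 in line 9. WRKY24, the member with the largest mean difference, had 1.01 (adjusted p = 0.235). Of the 15 phytoalexin genes 0 were called in OsYHB by limma (7 at an unadjusted p below 0.05), against 6 higher and 1 lower in wild type, and 0 had a called interaction. In wild-type red light too the arrays of CPS2 stood apart, at 7.0 and 4.96. Those of PBZ1 were at 10.17 and 9.77, of CPS4 at 5.24 and 4.64, of Cht2 at 7.07 and 6.57, and of CYP71Z7 at 7.77 and 5.71. For each of these genes line 1 in red light lay below both wild-type red light arrays. Line 9 lay above both, except for CYP71Z7, where it lay between them. Which of the lines departed from wild type was not tested.

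**Figure D4:**
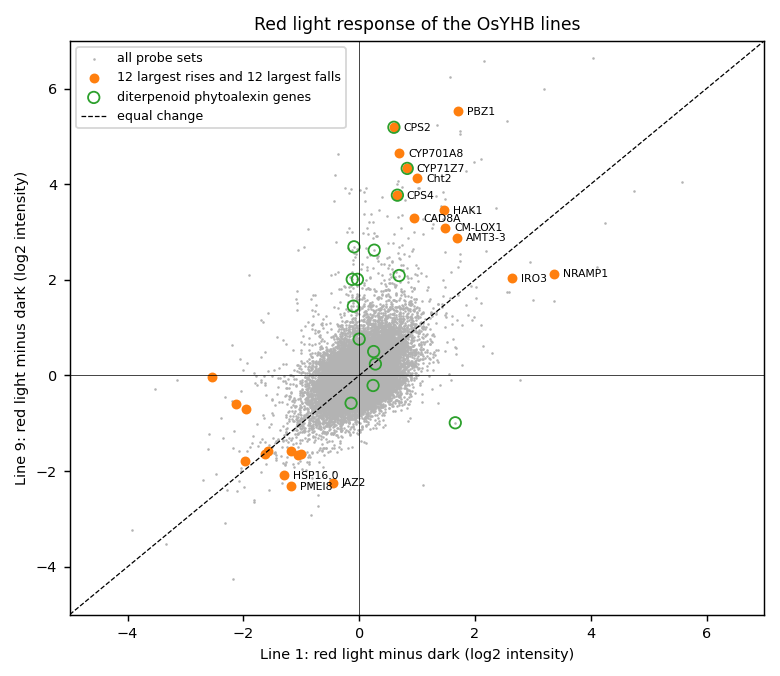
Difference in log2 intensity between red light and darkness in OsYHB line 9 (vertical axis) against line 1 (horizontal axis) for all probe sets. Orange points are the 12 largest positive and 12 largest negative differences among named genes, green rings the 15 phytoalexin genes, with medians of 2.01 in line 9 and 0.25 in line 1, and the dashed line marks an equal change.

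Large gaps between the lines mostly had line 9 higher. The differences of the lines had a Pearson correlation of 0.47 over all probe sets and 0.64 over the 24986 with a mean log2 intensity of at least 5. These are descriptions across probe sets, which share 4 arrays. Line 9 exceeded line 1 by over 2 log2 units in 135 probe sets and line 1 exceeded line 9 by as much in 8. Among the 12 named genes with the largest positive difference, 10 had the larger value in line 9, 7 of them by over 2 log2 units. Of the 12, 0 were called in OsYHB, with adjusted p from 0.0582 to 0.289. Of these 12 genes 6 were called higher in wild type, 0 were called lower there, and 0 had a called interaction. Over all genes 8.45% were called higher and 6.68% lower in wild type, and 6.59% had a called interaction. The remaining members were CM-LOX1, a lipoxygenase (2.29, SE 0.38, adjusted p = 0.129, and 3.69 in wild type), and CAD8A, of the cinnamyl alcohol dehydrogenase family (2.12, adjusted p = 0.235). With 1 array for each line and light condition, a difference between the lines cannot be told apart from a difference between the arrays.

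On the heat shock list 26 of 45 genes were lower in red light in both OsYHB lines (57.8%), against 29.3% of all genes, with a median of -0.19, but HSP24.1 alone was called in OsYHB. In wild type 13 of the 45 fell and 2 rose, with a median of -0.21. HSP16.0, another small heat shock protein, was at 6.19 and 6.0 in OsYHB red light, against 7.48 and 8.09 in OsYHB darkness (-1.69, SE 0.47, adjusted p = 0.227). RAmy3D, an alpha-amylase known for induction in sugar-starved rice cells, was at 4.89 and 5.04 in OsYHB red light, against 5.95 and 6.71 in OsYHB darkness (-1.37, SE 0.22, adjusted p = 0.127). Wild type differed in the opposite direction, by 0.79 (adjusted p = 0.0787), and the interaction of this probe set passed the test (-2.15, SE 0.31, adjusted p = 0.0143). The other RAmy3D probe set did not show it, with -0.04 in OsYHB (0.25 in line 1 and -0.32 in line 9), 0.14 in wild type and an interaction of -0.17 (adjusted p = 0.782). LAC20, a laccase, was at 8.21 and 8.04 in OsYHB red light, against 9.21 and 9.69 in OsYHB darkness (-1.32, SE 0.20, adjusted p = 0.116), with 0.09 in wild type and an interaction of -1.42 (SE 0.29, adjusted p = 0.045). The interaction of RAmy3D was lost without any OsYHB array or wild-type red light replicate 2 (adjusted p from 0.0592 to 0.159), and that of LAC20 in every fit but that without wild-type dark replicate 1 (0.0673 to 0.304). PPDK2, a pyruvate orthophosphate dikinase, had -1.33 (adjusted p = 0.264). PDC1, a pyruvate decarboxylase, had -1.29, nearly all of it from line 1 (-2.54, against -0.04 in line 9).

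AOS4 and PMEI8 fell in wild type and had a smaller negative difference in OsYHB. AOS4, an allene oxide synthase of jasmonate synthesis, was at 5.89 and 5.65 in OsYHB red light, against 7.51 and 7.30 in OsYHB darkness (-1.64, SE 0.24, adjusted p = 0.11). In wild type it fell by 3.79, and the genotypes differed (2.15, SE 0.34, adjusted p = 0.019). PMEI8, a pectin methylesterase inhibitor, was at 6.65 and 6.21 in OsYHB red light, against 7.84 and 8.52 in OsYHB darkness (-1.75, SE 0.28, adjusted p = 0.127). It fell by 4.17 in wild type (interaction 2.42, SE 0.40, adjusted p = 0.0218). In both genes the OsYHB dark arrays lay over 2 log2 units below the wild-type dark arrays, which were at 11.32 and 11.15 for AOS4 and 10.93 and 11.42 for PMEI8. The interaction of AOS4 was lost without any OsYHB array or wild-type dark replicate 1 (adjusted p from 0.0519 to 0.182), and that of PMEI8 without any OsYHB or wild-type red light array (0.0513 to 0.104). RAA1, a root growth regulator, had -1.36 in OsYHB (-2.12 in line 1 and -0.60 in line 9, adjusted p = 0.278) and fell by 2.71 in wild type. U2AF35A, a splicing factor subunit, had -1.37 in OsYHB (adjusted p = 0.107) and fell by 1.11 in wild type. SAT1 had -1.87 (adjusted p = 0.159), but its other probe set had -0.09. JAZ2, a jasmonate repressor, had -1.35 (adjusted p = 0.42), and its groups overlapped in OsYHB. Of the 12 named genes with the largest negative difference 1 was called in OsYHB, 4 were called lower in wild type and 5 had a called interaction. Over all genes the shares were 0.0335% lower in OsYHB, 6.68% lower in wild type and 6.59% in the interaction. The OsYHB difference chose these 12 and is a term of the interaction, so that count is raised by the choice and is given as a description only. Probe sets for HAK1, Cht2, SAT1, JAZ2 and PPDK2 carry the suffix of designs that can bind further transcripts, so these values are uncertain. The same holds for the probe sets read for OSH1, PHYA, SGR, RCABP69, OsCASP1 and OsCASPL2A1, which are named in other paragraphs.

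Ribosomal and cell cycle genes had small differences. All 20 cytosolic ribosomal protein genes were higher in red light in both OsYHB lines, against 42.9% of all genes, with differences from 0.13 to 0.43, a median of 0.22 in OsYHB and -0.03 in wild type. Of these 20, 0 were called in OsYHB (2 at an unadjusted p below 0.05), in wild type or in the interaction. 60SP0, a ribosomal stalk protein, had the largest difference and was at 11.93 and 11.84 in OsYHB red light, against 11.60 and 11.32 in OsYHB darkness (0.43, SE 0.16, adjusted p = 0.311). Of 68 cell cycle and DNA replication genes 42 were higher in both lines (61.8%), with a median of 0.19 in OsYHB and -0.14 in wild type, and 0 were called in OsYHB (23 at an unadjusted p below 0.05). ORC1, an origin recognition subunit, was at 6.84 and 6.97 in OsYHB red light, against 6.15 and 5.93 in OsYHB darkness (0.86, SE 0.16, adjusted p = 0.159). Among 54 wall genes BC1L9, a COBRA-like protein, was at 8.05 and 8.26 in OsYHB red light, against 6.57 and 5.67 in OsYHB darkness (2.04, SE 0.34, adjusted p = 0.132). On the list of expansins and xyloglucan enzymes 0 of 31 were called in OsYHB, and EXLA4 had the largest difference (0.87, SE 0.13, adjusted p = 0.11).

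Hormone lists held no call in OsYHB, where 0.0447% of all genes were called, so this does not set them apart from other genes. At an unadjusted p below 0.05 there were 12 of 68 auxin, 10 of 36 jasmonate and 6 of 31 cytokinin genes. There were also 2 of 14 gibberellin and 2 of 11 ethylene genes, against 3291 of all 17905. On the auxin list, with 68 genes, 17 fell and 3 rose in wild type, and the OsYHB median was 0.03. PIN4, an auxin efflux carrier, was at 4.04 and 4.02 in OsYHB red light, against 5.29 and 5.2 in OsYHB darkness (-1.22, SE 0.35, adjusted p = 0.235), and fell by 1.67 in wild type. The largest differences of the smaller lists were 0.47 for the gibberellin gene SLRL1, 0.43 for the ethylene gene ACS2 and 0.84 for LOGL9, of cytokinin activation, with adjusted p between 0.235 and 0.498. Among 25 aquaporins PIP2-5 had -0.81 (adjusted p = 0.305), and the dehydrin RAB21 of the seed list had -0.74 with an SE of 1.14, its wild-type red light arrays standing at 4.84 and 9.14, and its other probe set had 0.02.

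Genes with the largest difference between genotypes had OsYHB differences between -0.40 and 0.95, with 0 of 12 called in OsYHB. Over all genes 0.0447% were called in OsYHB, so that count does not set these genes apart. The interaction chose these 12 and is computed from the differences of both genotypes. Those differences are therefore shaped by the choice and are given as a description only. Levels in OsYHB darkness lay near those of red light for each of the 12, and the wild-type dark arrays stood apart for 11 of them, NAS2 being the exception, with wild-type red light apart. CFBP1, the cytosolic fructose-1,6-bisphosphatase of sucrose synthesis, was at 11.44 and 11.29 in OsYHB red light and 11.25 and 11.45 in OsYHB darkness, with an interval for the difference from -0.31 to 0.33. Its wild-type arrays were at 11.28 and 11.12 in red light, against 7.07 and 7.07 in darkness (interaction -4.12, SE 0.19, adjusted p = 0.00067). PDX12, of vitamin B6 synthesis, had an interaction of -4.73 (adjusted p = 0.00287), BGLU22, a beta-glucosidase, -3.99 (adjusted p = 0.00255), MADS56, a flowering regulator, -3.27 (adjusted p = 0.00503), and NIA1, a nitrate reductase, -3.20 (adjusted p = 0.00378). These 4 genes rose by 2.89 to 4.65 in wild type, and their OsYHB differences lay between -0.34 and 0.67. The other NIA1 probe set did not show the difference between genotypes, with -0.17 in OsYHB, 0.24 in wild type and an interaction of -0.41 (adjusted p = 0.386).

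In the other direction, ILL3, an auxin conjugate hydrolase of the ILR1-like family, was at 3.64 and 3.74 in OsYHB red light and 4.12 and 4.07 in OsYHB darkness, a difference of -0.40 (interval -1.12 to 0.32). In wild type it stood at 4.84 and 3.87 in red light, against 11.53 and 11.03 in darkness (interaction 6.53, SE 0.43, adjusted p = 0.00108). The homeobox genes OSH1 and HOS9, of the class that maintains the shoot meristem, had interactions of 4.40 (adjusted p = 0.0107) and 4.10 (adjusted p = 0.0237). GH3.2, which conjugates auxin to amino acids, had 4.16 (adjusted p = 0.0133), and the transporter gene ABCG45 had 4.39 (adjusted p = 0.00276). MT-1-4b, a metallothionein, had 4.10 (SE 0.31, adjusted p = 0.00187) and had the largest OsYHB difference of the 12, at 6.38 and 6.49 in red light against 5.49 and 5.5 in darkness (0.95, SE 0.22, adjusted p = 0.189). When each array was left out in turn, CFBP1, MADS56, MT-1-4b, ABCG45 and ILL3 kept their called interaction in all 8 fits. The calls of PDX12, BGLU22, NIA1 and OSH1 were lost in the fits without a line 9 array (adjusted p from 0.05 to 0.123). NAS2 lost its call without any OsYHB array or wild-type red light replicate 2 (adjusted p up to 0.145). GH3.2 and HOS9 kept theirs only without a wild-type dark array, with adjusted p up to 0.132 for GH3.2 and 0.234 for HOS9 in the other fits.

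**Figure D5:**
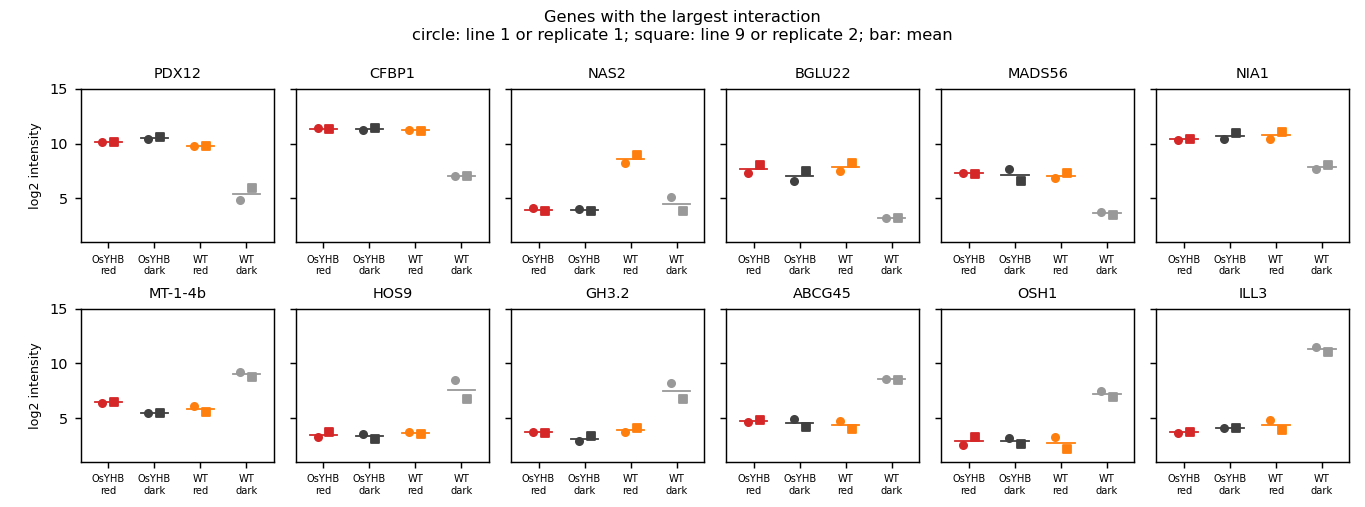
Log2 intensity of each array (points; circles are line 1 or replicate 1, squares line 9 or replicate 2, bars the means of 2 arrays) for the 12 named genes with the largest interaction, in OsYHB red light, OsYHB darkness, wild-type red light and wild-type darkness. For 11 of the genes the wild-type dark arrays stand apart from the other 6, and for NAS2 the wild-type red light arrays do.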

How the data were processed

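The labels' protocols describe amplification and biotin labelling of total RNA by a 3' IVT kit, for 1-colour Affymetrix arrays. The authors deposited 1 linear intensity for each probe set and array. The submitters' processing notes name RMA, GCOS and limma without versions or roles. Genome build, background model and detection calls: not given in the sources used here. Dim values are not shown to be above background, and background compresses their differences. The number of arrays limits the precision.

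Of 57381 probe sets 123 control probe sets were left out. Log2 intensities, not normalized further, were fitted with limma 3.58.1 (R 4.3.3) to all 8 arrays: 4 group means plus a line 9 term for OsYHB arrays, which left 3 residual degrees of freedom and an estimated prior of 4.39. Two-sided tests were adjusted by Benjamini-Hochberg over 57258 probe sets for each of 3 comparisons. Line pairs the OsYHB arrays by the labels; deviations from group means of the same line had a correlation of 0.145 between light conditions, against 0.0932 for same-numbered wild-type arrays, whose numbers pair nothing. The labels call the arrays of a group biological replicates. The fit was tested on simulated data.

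The platform annotation gave 1 gene for 22436 probe sets, several for 95 and none for 34727; all names came from RefSeq, and 2456 of 17905 genes had one that is not merely a locus or clone label. Each gene is read from its brightest probe set by mean. Named are the 12 genes with the largest rise and fall of the same sign in both lines (called ones first), up to 2 called members of each list in each direction or the member with the largest change, the 6 largest called interactions of each sign, the phytochromes, and the 2 largest called unnamed probe sets of each direction. A rule for genes called in both genotypes found 0 named ones. The 28 lists were rebuilt by gene name for this work; members, lists and rules were chosen with earlier results of these data known. Promoter sequences were not analysed here. Alternatives covered the block, the arrays fitted, normalization, pseudocount, a dimness filter, the empirical Bayes step, probe set choice and leaving out each array. Tables and plots used pandas 2.3.3 and matplotlib 3.10.9 in Python 3.11.15.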

Additional observations from a re-analysis of the deposited data

Results flagged for a closer look

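The red light response differed between OsYHB and wild type, by the limma interaction test (OsYHB change minus wild-type change, log2 scale), for 22 of the probe sets named above. Values were 6.53 for ILL3, 4.40 for OSH1, 4.39 for ABCG45, 4.16 for GH3.2, 4.10 for HOS9, 4.10 for MT-1-4b, 2.42 for PMEI8, 2.15 for AOS4 and 1.09 for PHYA. Negative values were -4.73 for PDX12, -4.12 for CFBP1, -4.09 for NAS2, -3.99 for BGLU22, -3.37 for Os.12430.1.S1_at, -3.27 for MADS56, -3.20 for NIA1, -2.15 for RAmy3D, -1.97 for Os.17496.1.S1_at, -1.57 for CRYD, -1.42 for LAC20, -1.20 for HSP24.1 and -1.09 for HSFB2C. In absolute size the OsYHB difference was the larger one, and lay below 0, for CRYD, RAmy3D, LAC20, HSP24.1, HSFB2C and Os.17496.1.S1_at. The other probe sets of RAmy3D (-0.17) and NIA1 (-0.41) and both others of HSFB2C (-0.06 and -0.58) did not pass the interaction test. All groups held 2 arrays, so no group was searched for an outlying array.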

How the results depend on the processing

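The OsYHB count of 14 calls was 6 with no replicate block, 2 with a replicate block over all 8 arrays, 0 with the OsYHB arrays alone (with and without the replicate block), 0 with log2(intensity + 16), 0 with 1 probe set per gene and 26 with trend and robust empirical Bayes (13 shared). At those settings with 0 calls, 3103 (1 probe set per gene) to 9392 probe sets had an unadjusted p below 0.05. Leaving out an array gave 0 to 17, the 17 from line 9 alone (2 shared with the 14) and 0 from line 1 alone. Quantile normalization gave 13 and the dimness filter 15. Wild-type calls were 3079 with 1 probe set per gene and 1747 to 5433 with an array left out; interaction calls were 1291 and 172 to 2844. The lowest counts came without wild-type red light replicate 2 (wild type) and without a line 9 array (interaction), and the cause was not tested. Probe sets called in both genotypes, 10 as reported, were 4 with no replicate block, 2 with the block over all arrays, 0 with log2(intensity + 16), 0 with 1 probe set per gene, 19 with trend and robust, and 0 to 15 with an array left out. The 1 list member called in OsYHB became 0 with the replicate block over all arrays, the OsYHB arrays alone, quantile normalization, log2(intensity + 16), 1 probe set per gene and every array left out (0 to 0), and 3 with trend and robust. OsYHB differences near 0 changed sign under quantile normalization for CFBP1 (0.00), OSH1 (0.02) and PHYC (-0.01). With a line left out they ranged from -0.09 to 2.57 for DXPS (LOC4342614), -0.17 to 0.19 for CFBP1, -0.02 to 0.03 for NAS2, -0.31 to 0.64 for MADS56, -0.31 to 0.58 for HOS9, -0.24 to 0.64 for ABCG45, -0.68 to 0.60 for OSH1 and -0.02 to 0.03 for PHYC. IRO3 and PORA passed the threshold with trend and robust (adjusted p = 0.0277 and 0.044). With log2(intensity + 16) the interactions of MADS56 (-2.26, adjusted p = 0.0502), GH3.2 (2.90, 0.0945), HOS9 (2.95, 0.115), RAmy3D (-1.48, 0.0537), LAC20 (-1.37, 0.0906), AOS4 (2.27, 0.0509), PMEI8 (2.43, 0.0626), HSFB2C (-0.95, 0.0575) and Os.12430.1.S1_at (-2.76, 0.0787) missed the threshold. HSFB2C also missed it with no replicate block (adjusted p = 0.0855) and with the block over all arrays (0.0712), and HOS9 (0.0593) and Os.12430.1.S1_at (0.0688) with trend and robust. The cause was not tested.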
